A study of Drosophila melanogaster with 6 samples.

Results

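The 10 dynein heavy chain genes described here were taken from a list of names, through the probe sets that the table of the array assigns to exactly one gene. All 10 were measured, by 14 probe sets of the 13647 that name a single gene, and they stand among 11953 genes. The Y-linked genes *kl-2*, *kl-3* and *kl-5* were covered by 5 probe sets, and 7 genes on the X chromosome and the autosomes by 9. None of the genes (0 of 10) lies on chromosome 4, the chromosome that the POF protein binds.

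Dynein heavy chains are the motor subunits of dynein, a complex that walks towards the minus end of microtubules. Axonemal heavy chains sit in the outer and inner arms between the microtubule doublets of the sperm tail and make them slide, whereas cytoplasmic heavy chains carry cargo in the cell body or along cilia. In *Drosophila* testes the axonemal genes are switched on in primary spermatocytes, and some of them lie on the Y chromosome as male fertility genes. *kl-3* and *kl-5* carry very large introns and form loops in the spermatocyte nucleus while they are transcribed.

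Testes came from *Pof* mutant males (*y1 w67c23; PofD119/PofD119*) and from wild type males (*y1 w67c23*), so both groups carry the same *y* and *w* alleles on the X. Each genotype had 3 biological replicates, each made of 60 pooled testes from males 0 to 24 h old, and total RNA of each was hybridised to 1 Affymetrix *Drosophila* array, 6 in all. The deposited values are on the log2 scale after RMA, which corrects background, brings the arrays to a common distribution and summarises each probe set. Signal depends on the probes, so a level is set against the same gene on other arrays and not against that of another gene. Counts of genes with a level below 6 describe array signal only and do not rank genes by expression. The changes are *Pof* mutant minus wild type and were tested with limma, with Benjamini-Hochberg adjustment over all 11953 genes and a threshold of 0.05 for the adjusted p.

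The genotype labels held for *Pof* itself, which read 10.38, 10.50 and 10.30 in *Pof* mutant testes, against 12.98, 13.06 and 12.89 in wild type testes. It fell to 16.6% of the wild type level (log2 change -2.59, SE 0.09, adjusted p = 9.4e-05). Of 6 listed fat body markers 3 were measured. All 3 were called lower in *Pof* mutant testes by limma (adjusted p of 0.0097 to 0.032), as were 1.5% of all genes. Their mean log2 level was 5.66 to 6.10 on the mutant arrays, against 7.32 to 8.26 on the wild type ones. Of 10 germline markers, the sperm genes *dj* (-0.75, adjusted p = 0.0043) and *Mst84Db* (-0.53, adjusted p = 0.015) were lower and 8 did not pass. Changes below 0 were seen in 8 of the 10, against 5902 of all 11953 genes. In 4 of the 10 all mutant arrays lay below all wild type arrays, against 11.4% of all genes. The first principal component, 52.9% of the variance, set replicate 2 of both genotypes apart. The 4 markers of the ejaculatory duct and bulb were measured at a mean of 11.81 to 13.76 on the mutant arrays and 11.71 to 13.41 on the wild type arrays, with replicate 2 the lowest in 3 of 4 among the mutant arrays and in 4 of 4 among the wild type arrays. *Ebp* of the bulb read 13.33, 10.74 and 13.61 in *Pof* mutant testes and 12.69, 10.56 and 13.34 in wild type testes, while *Dup99B* of the duct varied little, at 13.74, 13.90 and 13.96 in *Pof* mutant testes and 14.02, 13.89 and 14.03 in wild type testes. The 7 accessory gland markers were measured at a mean of 13.38 to 13.57 on the mutant arrays and 13.26 to 13.52 on the wild type arrays. Wild type replicate 2 was the lowest in 7 of 7 of them (29.6% of all genes), and mutant replicate 1 in 5 of 7 (25.8%). The part of all these markers and of replicate 2 in the values below was not tested.

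The first question was whether any dynein heavy chain changed in *Pof* mutant testes. None passed the test. With limma 0 of 10 were lower, where 1.5% of all genes were, and 0 of 10 were higher, where 1.25% were (2.75% in either direction). At an unadjusted p under 0.05 there was 1 of 10, *Dhc98D*, where 14.6% of all genes lay under it. The changes of the 10 genes ran between -0.61 and 0.25, with 4 below 0 and 6 above, and had a median of 0.03, against 0.00 over all genes. Their median absolute change was 0.07, against 0.12 over all genes. This value mixes genes at different levels, as 5 of the 10 had a wild type mean below 6. For the 5 autosomal and X-linked axonemal genes, none of them below 6, it was 0.18. For the 3 Y-linked genes, all below 6, it was 0.04. The median standard error was 0.17 for the heavy chains and 0.12 for all genes, so the precision was lower for most of them than for a typical gene. It was smaller for *kl-2* (0.09), *Dhc64C* (0.08) and *btv* (0.07), whose gene levels were below 6 on all 6 arrays.

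**Figure D1:**
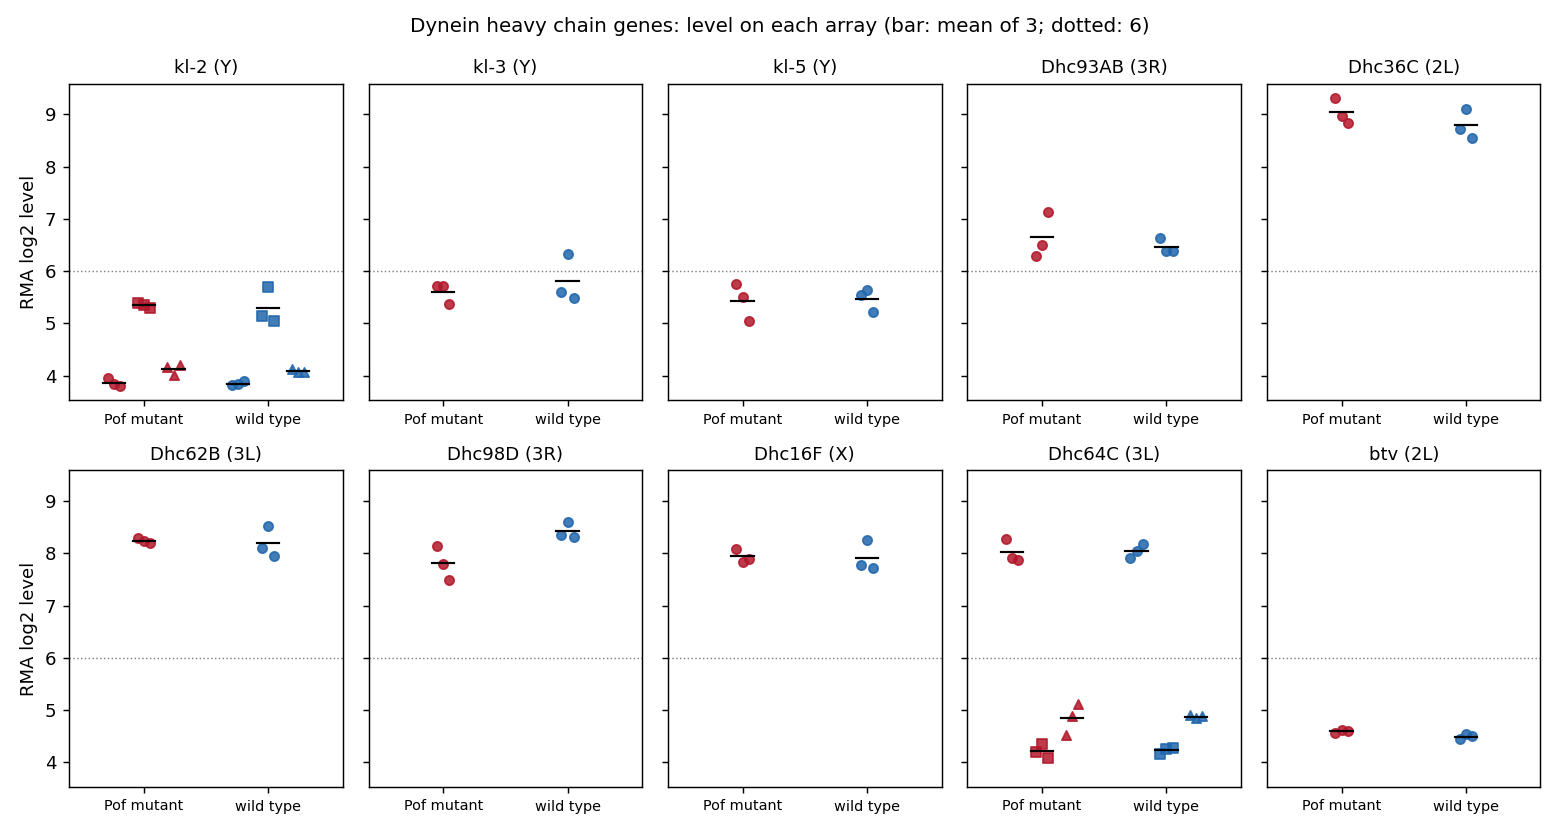
RMA log2 level of each dynein heavy chain gene (chromosome arm in brackets) on the 3 Pof mutant arrays (left, red) and the 3 wild type arrays (right, blue), with 1 symbol shape per probe set, a bar at the mean of the 3 replicates and a dotted line at a level of 6. In Dhc98D, the 3 mutant points between 7.50 and 8.14 lie below the 3 wild type points between 8.31 and 8.60, and in btv the mutant points between 4.57 and 4.61 lie above the wild type points.

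*Dhc98D*, an axonemal heavy chain gene on 3R with 1 probe set, had the largest difference of the 10. It read 8.14, 7.80 and 7.50 in *Pof* mutant testes (7.81 ± 0.32, SD, n = 3), against 8.36, 8.60 and 8.31 in wild type testes (8.43 ± 0.16). All mutant arrays lay below all wild type arrays, a pattern that 1 of the 10 heavy chains and 11.4% of all genes showed. The mutant level was 65.3% of wild type (95% confidence interval 48.8 to 87.5%; log2 change -0.61, SE 0.18). This had a limma p of 0.011 and an adjusted p of 0.16, so it did not pass. With replicate number added as a block its adjusted p was 0.083, and over 12 alternative settings the change stayed between -0.78 and -0.46 without passing in any. In bulk tissue, fewer cells that express a gene and less RNA per cell cannot be told apart.

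*kl-3* encodes a heavy chain of the outer arms. It read 5.71, 5.71 and 5.36 in *Pof* mutant testes, against 5.60, 6.33 and 5.48 in wild type testes. The groups overlapped, and wild type replicate 2 alone lay above 6, the minimum that the study used for expressed genes. The mutant level was 86.4% of wild type with a wide interval (58.4 to 128%; log2 change -0.21, SE 0.24, adjusted p = 0.79). Without wild type replicate 2 the change was 0.05, and without both arrays numbered 2 it was -0.006. Little of the change was thus left without wild type replicate 2.

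*kl-5*, the other Y-linked heavy chain of the outer arms, read 5.76, 5.51 and 5.04 in *Pof* mutant testes, against 5.55, 5.64 and 5.22 in wild type testes. The mutant arrays were both the highest and the lowest of the 6. Its log2 change was -0.04 (SE 0.21, interval -0.53 to 0.46, adjusted p = 0.97), and the constant that the study adds to each mutant array turned it to 0.03.

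*kl-2*, the third Y-linked gene, is read by 3 probe sets, whose changes were 0.02, 0.05 and 0.03. Averaged, it stood at 4.50, 4.40 and 4.44 in *Pof* mutant testes and at 4.36, 4.53 and 4.34 in wild type testes. The values interleaved, with a log2 change of 0.03 (SE 0.09, interval -0.18 to 0.24, adjusted p = 0.92). Only the second probe set (5.39, 5.35 and 5.30 in *Pof* mutant testes, 5.14, 5.69 and 5.05 in wild type testes) was clearly high in wild type replicate 2, as *kl-3* was. Tested on its own, the second probe set had an SE of 0.17 and a wider interval of -0.36 to 0.47. The remaining probe sets read between 3.81 and 4.20 on all arrays. In the wild type mean, 3 of 3 Y-linked heavy chain genes lay below 6, as did 2 of the 7 other heavy chain genes and 37.3% of all genes. The averaged *Dhc64C* is among these 2, although its first probe set had a wild type mean of 8.04.

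*Dhc93AB*, on 3R, is an outer arm heavy chain by sequence. Its levels were 6.30, 6.51 and 7.13 in *Pof* mutant testes, against 6.63, 6.39 and 6.38 in wild type testes. Mutant replicate 3 stood above the other 5 arrays, and the log2 change of 0.18 (SE 0.22, interval -0.34 to 0.70, adjusted p = 0.81) lay within the spread between replicates. Without mutant replicate 3 it was -0.06.

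*Dhc36C* on 2L, *Dhc62B* on 3L and *Dhc16F* on the X resemble inner arm heavy chains by sequence. *Dhc36C* read 9.31, 8.97 and 8.83 in *Pof* mutant testes, against 8.71, 9.09 and 8.56 in wild type testes. Mutant replicate 1 was the highest of the 6 arrays, and the groups overlapped (log2 change 0.25, SE 0.18, interval -0.19 to 0.69, adjusted p = 0.64). The change was 0.11 without mutant replicate 1, 0.13 without wild type replicate 3 and 0.40 without wild type replicate 2. *Dhc62B* read 8.29, 8.23 and 8.19 in *Pof* mutant testes, against 8.11, 8.52 and 7.96 in wild type testes. Its mutant arrays lay close together inside the range of the wild type arrays (log2 change 0.05, SE 0.15, interval -0.31 to 0.41, adjusted p = 0.94). *Dhc16F* read 8.09, 7.84 and 7.90 in *Pof* mutant testes, against 7.78, 8.26 and 7.72 in wild type testes. Here too the mutant values lay inside the wild type range (log2 change 0.02, SE 0.16, interval -0.36 to 0.41, adjusted p = 0.97).

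*Dhc64C*, on 3L, is the heavy chain of cytoplasmic dynein 1, the motor of general transport in the cell. Its first probe set read 8.28, 7.91 and 7.87 in *Pof* mutant testes, against 7.91, 8.04 and 8.17 in wild type testes, and the other 2 read between 4.08 and 5.12. All 3 probe sets had small changes, of -0.02, -0.02 and -0.03. Averaged, the gene stood at 5.67, 5.72 and 5.69 in *Pof* mutant testes and at 5.66, 5.71 and 5.78 in wild type testes. The groups overlapped (log2 change -0.02, SE 0.08, interval -0.21 to 0.16, adjusted p = 0.93). The first probe set, the only one above 6, had an SE of 0.14 and a wider interval of -0.35 to 0.30 when tested on its own.

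*btv* (beethoven), on 2L, is the heavy chain of dynein 2, the motor of retrograde intraflagellar transport in the cilia of hearing neurons. The sperm axoneme of the fly is built in the cytoplasm without this transport. *btv* read 4.57, 4.61 and 4.60 in *Pof* mutant testes, against 4.45, 4.54 and 4.50 in wild type testes. All mutant arrays lay above all wild type arrays, as for 9.15% of all genes, at a distance of 0.10 on the log2 scale (SE 0.07, interval -0.08 to 0.27, adjusted p = 0.64). Every array was below 6, and of 6 listed markers of ciliated neurons 5 had a wild type mean below 6 as well, against 37.3% of all genes.

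**Figure D2:**
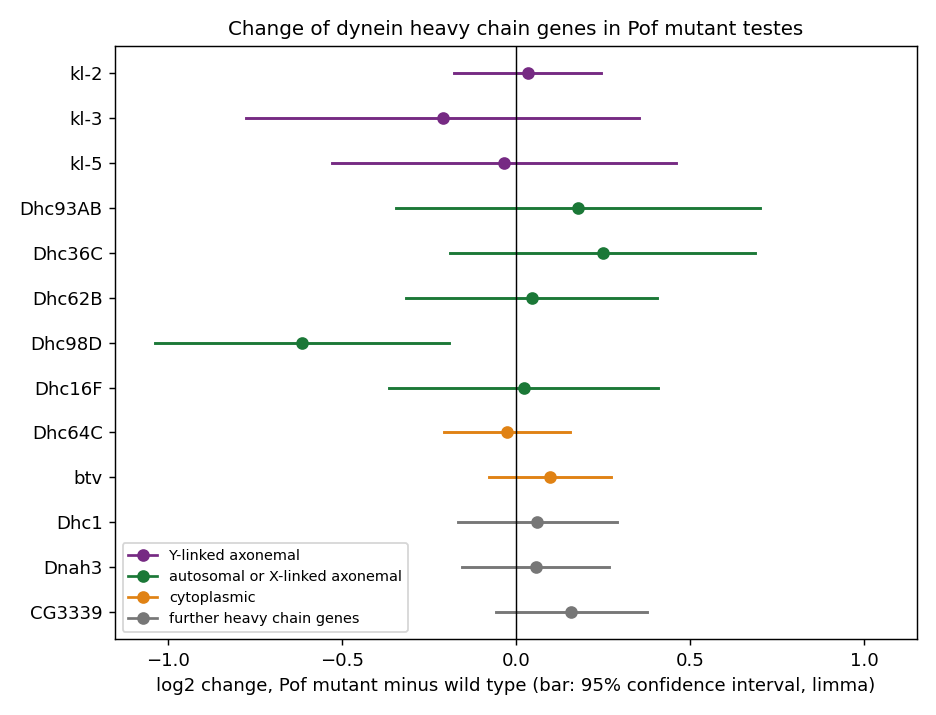
Log2 change, Pof mutant minus wild type, of the 10 dynein heavy chain genes and of 3 further heavy chain genes, with bars for the 95% confidence interval of the limma fit. The interval of Dhc98D, -1.04 to -0.19, does not reach 0 before adjustment for the number of genes tested, and the other 12 intervals include it.

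The gene table names 3 further dynein heavy chains by their synonyms, *Dhc1*, *Dnah3* and *CG3339*, which are not in the list. Their log2 changes were 0.06 (adjusted p = 0.85), 0.06 (0.85) and 0.16 (0.51), and 0 of 3 passed. Of the 5 probe sets of *Dnah3*, 1 read above 6. It stood at 8.72, 8.48 and 8.22 in *Pof* mutant testes and at 8.29, 8.59 and 7.97 in wild type testes, so the groups overlapped there as well.

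The Y-linked genes were then set against the autosomal and X-linked ones, with each gene expressed as its distance from its own wild type mean. Over the 3 Y-linked genes the mean distance was 0.09, -0.02 and -0.28 in *Pof* mutant testes, against -0.06, 0.27 and -0.22 in wild type testes. Over the other 7 genes it was 0.05, -0.05 and -0.02 in *Pof* mutant testes, against -0.04, 0.16 and -0.12 in wild type testes. The mean change was thus -0.07 for the Y-linked and -0.01 for the other genes. The difference between both sets was 0.04, 0.03 and -0.26 in *Pof* mutant testes, against -0.01, 0.11 and -0.10 in wild type testes, so the groups overlapped, and mutant replicate 3 was the array on which the Y-linked genes lay lowest relative to the others. No test was made of these means. Without mutant replicate 3 the mean difference between genotypes was 0.03 in place of -0.06. The mean change of the other 7 genes includes the -0.61 of *Dhc98D*, while 5 of the 7 changes were above 0. Over the 5 axonemal genes among these 7 the mean change was -0.02. All 3 Y-linked genes had a wild type mean below 6, and RMA can understate changes at low levels.

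**Figure D3:**
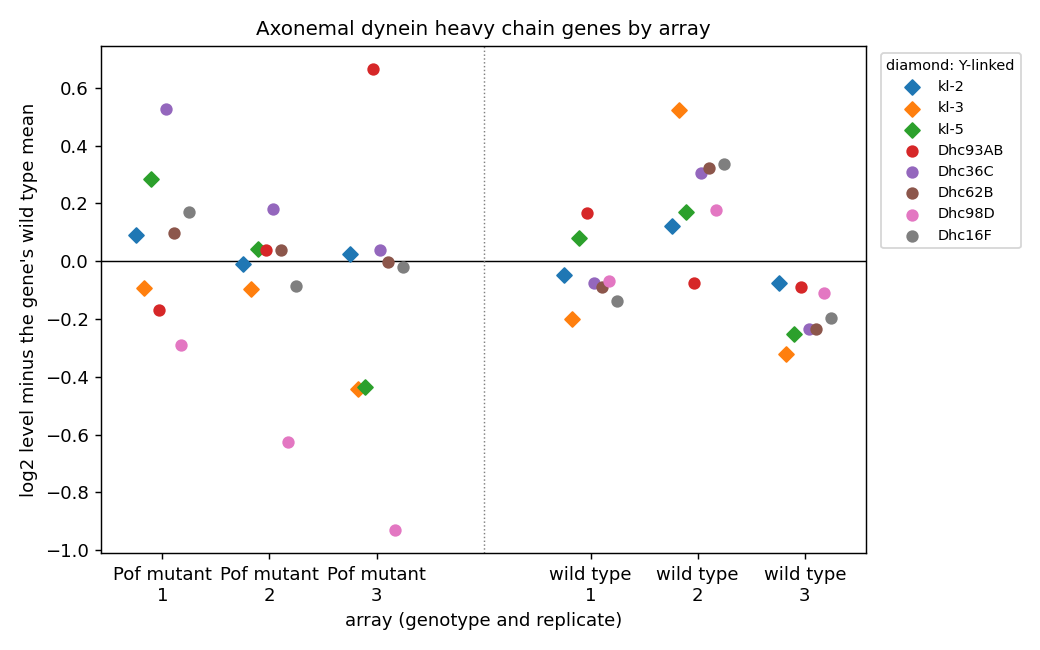
Log2 level of the 8 axonemal dynein heavy chain genes on each array, as the distance from the mean of the gene over the 3 wild type arrays (Pof mutant arrays left, wild type arrays right, diamonds for Y-linked genes). On wild type replicate 2, 7 of 8 genes lie above 0 and on wild type replicate 3 all 8 lie below 0, a spread within wild type as wide as most of the differences between genotypes.

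The axonemal heavy chains shared part of their spread between replicates. Among the wild type arrays, replicate 2 was the highest in 7 of the 8 axonemal genes (54.1% of all genes) and replicate 3 the lowest in 8 of 8 (43.5%). Among the *Pof* mutant arrays, replicate 1 was the highest in 7 of 8 (32.9% of all genes) and replicate 2 in 0 of 8 (40.3%). The order on the wild type arrays was not particular to the heavy chains: replicate 2 was also the highest in 5 of 5 other Y-linked genes, 10 of 12 light chains, 11 of 11 assembly and docking genes and 7 of 7 other axoneme genes, and replicate 3 the lowest in 5, 9, 8 and 5 of them. On the mutant arrays, replicate 2 was the highest in 5 of 5 other Y-linked genes, 12 of 12 light chains, 7 of 7 other axoneme genes and 7 of 11 assembly and docking genes. Mutant replicate 1 was the highest in 6 of 10 germline markers, where replicate 2 was in 4. In the 13 dynactin and cofactor genes each of these 2 arrays was the highest in 6. This order was noticed after the values were seen and is a description without a test. Each array holds the RNA of 1 sample, so its genes are not independent of each other.

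Other parts of the dynein machinery were read from lists of partners. Of 75 genes listed, 66 were measured, and limma called 0 of 66 lower and 0 of 66 higher, where 1.5% and 1.25% of all genes were called. At an unadjusted p under 0.05 there were 8 of 66, where 14.6% of all genes lay under it, and 33 changes were below 0 and 33 above. With the block, 4.84% of all genes passed, as did 0 of the 10 heavy chains and 3 of the 66 partners. These 3 were the roadblock type light chains *robl37BC* and *robl22E*, which were higher, and the Y-linked *Ppr-Y*, which was lower.

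*robl37BC* read 10.67, 10.77 and 10.62 in *Pof* mutant testes, against 10.23, 10.29 and 10.03 in wild type testes, a log2 change of 0.50 (SE 0.10, adjusted p = 0.059; 0.032 with the block). *robl22E* read 10.94, 11.13 and 10.82 in *Pof* mutant testes, against 10.50, 10.74 and 10.30 in wild type testes, a change of 0.45 (SE 0.14, adjusted p = 0.20; 0.043 with the block). In both genes all mutant arrays lay above all wild type arrays, as in 8 of the 66 partners and 9.15% of all genes. Of the 12 light chains, 10 had changes above 0, against 6051 of all 11953 genes, with a median of 0.08. The light chain *ctp* went the other way. It read 10.85, 10.86 and 10.75 in *Pof* mutant testes, against 11.11, 11.02 and 11.22 in wild type testes. Its log2 change was -0.30 (SE 0.09, limma adjusted p = 0.17; 0.16 with the block).

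The other Y-linked genes were 5 of 9 measured, with a median of -0.24. *Ppr-Y* read 6.60, 6.72 and 6.31 in *Pof* mutant testes, against 7.13, 7.24 and 6.79 in wild type testes (log2 change -0.51, SE 0.16, adjusted p = 0.20; 0.027 with the block). All mutant arrays lay below all wild type arrays in this gene, as in 6 of the 66 partners and 11.4% of all genes. The changes of the remaining ones were 0.02 for *ARY*, an aldehyde reductase, -0.28 for *ORY*, another gene of the giant Y loops, 0.01 for *Pp1-Y2*, a phosphatase, and -0.24 for *WDY*, a protein with WD repeats, and none of the 4 passed with or without the block.

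In the remaining lists no gene passed in either fit. The 7 intermediate and light intermediate chains had a median of -0.05, with 0.23 for *Dlic* of cytoplasmic dynein and -0.21 for *CG1571*. The 13 dynactin and cofactor genes had a median of 0.02, with 0.42 for the dynactin subunit *DCTN5-p25* and -0.24 for *cpb*, a capping protein. Among 11 genes of axonemal dynein assembly and docking the median was -0.04, with 0.27 for *CG13901* and -0.22 for the assembly factor *Dnaaf5*. Among 7 other axoneme genes it was 0.00, with 0.28 for *lobo*, of the link between doublets that regulates dynein, and 0.11 for the radial spoke gene *Rsph9*. The 11 genes of intraflagellar transport had a median of -0.02, with 0.36 for *IFT57* and -0.30 for *rempA*. Of the 11, 6 had a wild type mean below 6, as *btv* and 37.3% of all genes did. The others lay above 6, up to 9.71 for *nompB*.

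**Figure D4:**
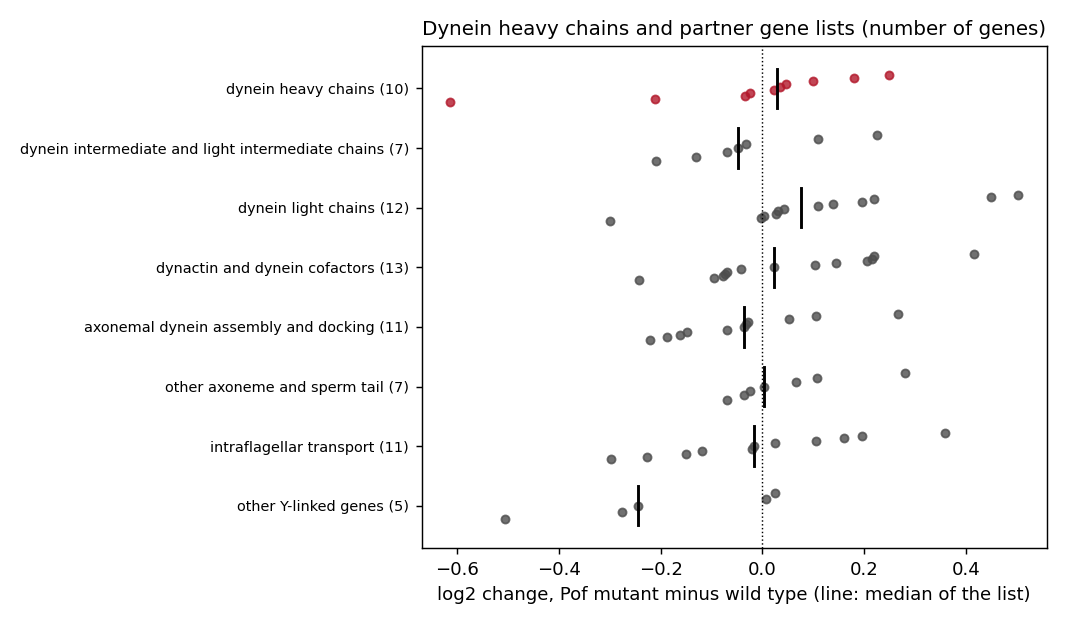
Log2 change, Pof mutant minus wild type, of each gene in the heavy chain list (red) and in the 7 partner lists (grey), with a line at the median and the number of genes measured in brackets. The medians run from -0.24 for the other Y-linked genes to 0.08 for the light chains, and the heavy chain median is 0.03.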

How the data were processed

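The authors ran RMA on the arrays and deposited a log2 value per probe set and array, per the labels and the methods of the paper. Neither the RMA version nor the build behind the array design is given in the sources used here, and coordinates are therefore left out. Of 18952 probe sets, 13647 named 1 gene in the platform annotation, 402 several and 4903 none; only the first were used, and they were averaged per gene on the log2 scale. Chromosome arms and names came from RefSeq (Release 6), where 13635 of these probe sets matched. *kl-3* and *kl-5* were matched by symbol, because their identifiers differed between both tables. The study removes genes below 6 in wild type and adds a constant to each mutant array. Neither step had been applied to the deposited values, and both were used here only as alternatives, since the minimum would drop the Y-linked genes. RMA brings arrays to a common distribution, which would remove a change shared by most genes, and can understate changes at low levels.

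The test was limma 3.58.1 under R 4.3.3 (lmFit, eBayes; adjusted p under 0.05 over 11953 genes), after a check on simulated data; figures used Python 3.11.15 and matplotlib 3.10.9. With 3 replicates per genotype an exact permutation test of single genes cannot go below a two-sided p of 0.1, so none was used, and the number of arrays limits the precision. Alternatives were the minimum, the constant, the replicate block, limma's trend and robust options, single probe sets, and leaving out arrays. Both genotypes have replicates 1, 2 and 3. After subtraction of the genotype mean per gene, the mutant and wild type arrays of one number correlated over all genes at 0.29, 0.86 and 0.59, which was taken as pairing. This rests on the data alone, since no source names a shared day or batch. For mutant replicate 1 the correlation was higher with wild type replicate 3 (0.48). Mutant replicate 3 correlated with wild type replicate 1 (0.56) nearly as with its own number. The matching of replicates 1 and 3 is therefore not settled, and the results with the block depend on it. A block with 1 and 3 exchanged was not run. Named were all listed heavy chains, further heavy chains, *Pof*, all other Y-linked genes and, per partner list, the 2 largest absolute changes. The light chain *ctp* was added as the largest change below 0 in its list. The members, lists and alternatives were chosen with earlier results of these data known. No sequence is shown.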

Additional observations from a re-analysis of the deposited data

How the results depend on the processing

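For the 10 dynein heavy chain genes, 0 were called lower and 0 higher under each alternative run, and *Dhc98D*, *Dhc36C* and *btv* kept their direction in each. The other 7 changes were smaller than their standard errors and turned in direction under some settings; the cause was not tested. The constant of the study gave 0.0297 for *kl-5* and 0.0405 for *Dhc64C* (0.0417 with the minimum of 6), and leaving out both arrays numbered 2 gave 0.0114 for *kl-5*. Leaving out 1 array at a time gave log2 changes of 0.110 to 0.402 for *Dhc36C*, -0.00346 to 0.0955 for *kl-2*, -0.371 to 0.0503 for *kl-3*, -0.196 to 0.164 for *kl-5*, -0.0639 to 0.353 for *Dhc93AB*, -0.0725 to 0.208 for *Dhc62B*, -0.0767 to 0.190 for *Dhc16F* and -0.0530 to 0.00569 for *Dhc64C*. The direction turned without wild type replicate 3 for *kl-2*, *Dhc62B*, *Dhc16F* and *Dhc64C*, without wild type replicate 2 for *kl-3* and *kl-5*, without wild type replicate 1 for *kl-5* and *Dhc16F*, without mutant replicate 3 for *kl-5* and *Dhc93AB*, and without mutant replicate 1 for *Dhc16F*. With the minimum of 6 in wild type, *kl-2*, *kl-3*, *kl-5* and *btv* gave no value, and the averaged *Dhc64C* rested on its first probe set. Of the partner genes, 0 of 66 were lower and 0 higher, against 1 lower and 2 higher with the replicate block, and 1 higher with the constant, with the constant and the minimum, and with the trend and robust options. Over all genes, 179 were lower and 150 higher; the replicate block gave 334 and 244, the constant 244 higher, and leaving out 1 array gave 76 to 197 lower and 58 to 155 higher, fewest without wild type replicate 1. The block changed no call of a heavy chain.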
